A study of Mus musculus with 2 samples.

Results

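Among 108541 autosomal windows of 1000 bp, 1120 (1.03%) were less methylated on both DNA strands in the I-PpoI library of mouse blood than in the wild-type (WT) library. These losing windows were chosen from the measured values. A window had to hold at least 5 CpG cytosines read 10 or more times in both libraries, with at least 2 on each strand. Its level, the share of methylated reads summed over cytosines, had to be at least 20 percentage points lower in I-PpoI over all cytosines and at least 10 points lower on the F (forward) and on the R (reverse) strand taken apart. Their loss is therefore a description of the choice and carries no test. By the mirrored rule 64 windows (0.059%) gained methylation.

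The data were reduced representation bisulfite sequencing (RRBS) of peripheral blood cells, with 1 library per group and no replicates. RRBS reads DNA next to CCGG sites, where the enzyme MspI cuts, and bisulfite turns unmethylated cytosines into bases read as T. I-PpoI is a homing endonuclease, an enzyme that cuts both strands of DNA at its recognition site, and by the series title its expression was specific to the proximal tubular epithelial cell, a kidney cell type. The WT group is labelled as WT with nothing further. The labels give no strain, age, sex, Cre driver or number of mice for either group. The cells read were blood cells, not the kidney cells in which I-PpoI was expressed. Starts of the genes listed for blood cells had median WT levels of 4.17% for B cells (7 starts), 5.22% for monocytes (5), 10.2% for T cells (10), 14.3% for NK cells (5), 17.9% for erythroid cells and platelets (7) and 25.4% for granulocytes (7). For 10 starts of proximal tubule genes the median was 41.5%. In bulk DNA a different mix of blood cell types and a difference within a cell type cannot be told apart.

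Methylation of CpGs is symmetric as a rule: the cytosine of a CpG on either strand carries the mark, and after replication the maintenance methyltransferase DNMT1 copies it to the new strand with the help of UHRF1. Active removal runs through oxidation by TET enzymes. Most CpG-dense gene starts are free of methylation, while gene bodies and the DNA between genes are largely methylated, and partly methylated stretches in blood often differ between cell types. F and R cytosines are read from different strands of the DNA, so the levels of the strands come from separate reads.

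The letters of 5 gene starts show the CpGs that were measured, since reference letters were at hand for promoters only and these lie in losing windows. Each run gives the 250 bases before the start in the direction of transcription, from RefSeq on GRCm38.p6, with the CpGs measured in both libraries in capitals. Angptl8 (chr9:21835260-21835509, + strand), Slc7a7 (chr14:54410204-54410453, - strand) and the long noncoding RNA gene Gm40983 (chr13:65379184-65379433, + strand) followed from the naming rule. Nradd (chr9:110624394-110624643, - strand) and Tubb4a (chr17:57087601-57087850, - strand) were chosen after their values were seen.
Angptl8: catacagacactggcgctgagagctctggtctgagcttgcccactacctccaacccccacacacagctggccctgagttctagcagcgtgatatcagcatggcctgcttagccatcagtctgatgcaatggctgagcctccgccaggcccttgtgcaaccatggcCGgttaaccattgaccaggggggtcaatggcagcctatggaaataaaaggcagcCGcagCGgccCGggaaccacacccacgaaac
Slc7a7: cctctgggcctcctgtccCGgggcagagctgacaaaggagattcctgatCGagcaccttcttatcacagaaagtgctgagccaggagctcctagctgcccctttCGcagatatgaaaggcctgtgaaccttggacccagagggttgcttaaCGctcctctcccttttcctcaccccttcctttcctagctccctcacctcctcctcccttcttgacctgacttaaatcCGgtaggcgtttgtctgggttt
Gm40983: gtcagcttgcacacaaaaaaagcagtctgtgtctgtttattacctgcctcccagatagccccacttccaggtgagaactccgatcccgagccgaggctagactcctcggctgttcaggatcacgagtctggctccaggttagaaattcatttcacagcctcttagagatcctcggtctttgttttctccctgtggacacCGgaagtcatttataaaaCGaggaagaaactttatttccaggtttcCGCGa
Nradd: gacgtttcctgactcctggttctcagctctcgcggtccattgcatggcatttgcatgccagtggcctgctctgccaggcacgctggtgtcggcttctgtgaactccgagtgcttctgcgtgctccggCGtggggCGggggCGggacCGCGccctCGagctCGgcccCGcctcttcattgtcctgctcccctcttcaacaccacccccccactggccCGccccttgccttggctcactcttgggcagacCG
Tubb4a: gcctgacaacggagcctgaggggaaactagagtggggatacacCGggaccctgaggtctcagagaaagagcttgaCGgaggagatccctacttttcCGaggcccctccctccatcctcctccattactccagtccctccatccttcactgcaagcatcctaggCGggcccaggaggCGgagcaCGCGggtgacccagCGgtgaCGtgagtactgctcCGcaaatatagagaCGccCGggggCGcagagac

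Angptl8 encodes a secreted regulator of lipoprotein lipase, and its start lies inside Dock6, a gene of a guanine nucleotide exchange factor. All 6 cytosines measured in its window (chr9:21835001-21836000) lay in the letters above and all were lower in I-PpoI. The F cytosine 85 bases before the start stood at 70.8% in WT (48 reads) and 7.14% in I-PpoI (28 reads). The CpG 31 bases before the start stood at 80% and 28.6% on F and at 55.6% and 11.8% on R. At the CpG 26 bases before the start the levels were 76.0% and 35.7% on F and 55.6% and 5.88% on R. The libraries did not overlap on either strand: the lowest WT cytosine was at 55.6% and the highest I-PpoI cytosine at 35.7%. The 3 R cytosines were each covered by 18 reads in WT and 34 in I-PpoI, so the sums over a window count the same stretch of DNA several times.

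Slc7a7, which encodes a light chain of a cationic amino acid transporter of kidney and macrophages, was lower at all 5 CpGs printed. Its promoter pooled to 65.0% in WT and 33.5% in I-PpoI, read on F cytosines alone. The CpG 146 bases before the start, the deepest with 108 and 78 reads, went from 74.1% to 43.6%. Its whole window (chr14:54410001-54411000) held 16 cytosines, of which 15 were lower, with 63.9% in WT and 26.5% in I-PpoI. At Gm40983 the 4 CpGs printed were covered by 17 or 18 reads in WT and 14 in I-PpoI, and pooled to 38.0% and 7.14%. The 17 cytosines of its window (chr13:65379001-65380000) were all lower, at 44.8% in WT and 6.49% in I-PpoI.

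Nradd, which encodes a membrane protein with a death domain, showed the loss most strongly in the CpG cluster between 123 and 84 bases before its start. These 8 CpGs pooled to 59.9% in WT (152 reads) and 3.82% in I-PpoI (131 reads). They were read on F cytosines alone, each with 17 to 20 reads in WT and 14 to 18 in I-PpoI. The sums therefore count the same stretch of DNA several times. The 4 CpGs from 34 bases before to 28 bases after the start pooled to 45.5% and 17.8%. Tubb4a, a beta tubulin gene, showed the reverse order along its promoter. Its 10 CpGs from 207 to 33 bases before the start went from 61.6% to 47.8%. The strands often disagreed in this stretch: 53 bases before the start F went from 28% to 48% and R from 66.7% to 33.3%. Both strands were lower at others, such as 65 bases before the start (59.2% to 45.8% on F, 86.4% to 41.7% on R). The 8 CpGs from 19 bases before to 48 bases after it went from 53.8% to 19.5%. At Abca13, a lipid transporter family gene whose window was also lower, 3 CpGs before the start stood at 64.3% and 68.0%, and 3 CpGs between 21 and 40 bases after it at 81.3% and 33.9%.

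Measured cytosines of losing windows fell into 27 RefSeq promoter windows (250 bases before to 50 after a start), in 26 losing windows. All 27 were lower in I-PpoI and 18 were lower by 20 points or more; the losing windows had been chosen for lower values. The smallest difference was at Ctu1, at 0.680% in WT and 0.422% in I-PpoI, so the lower level of that window came from cytosines outside the promoter. The letters CCGG, the MspI site, were present in 26 of the 27, and in 53.5% of the 31396 autosomal promoter windows. The letters TGTGGT, the core bound by RUNX factors, were in 6 (22.2%) against 16.7% of all, and GGAAGT, an ETS core, in 10 (37.0%) against 23.9%, each searched on both strands. A match gives letters in this window and no binding. RRBS reads no promoter without a nearby MspI site, and CpG content differed too, with a median of 10 CpGs in the 27 and 7 in all.

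Losing windows had gone from a largely methylated state in WT to a middle level in I-PpoI. Their median WT level was 75.7% (quartiles 62.7 and 87.2%) and their median I-PpoI level 48.9% (34.2 and 60.7%). The median difference was -24.8 points, against -1.10 over all windows that met the minimums. The loss reached 30 points in 253 windows, 40 points in 46 and 50 points in 10, and it was under 25 points in 574. In WT 466 windows were at 80% or more, 617 at 40 to 80% and 37 below 40%. In I-PpoI 87 were below 20%, 740 at 20 to 60% and 293 at 60% or more.

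**Figure D1:**
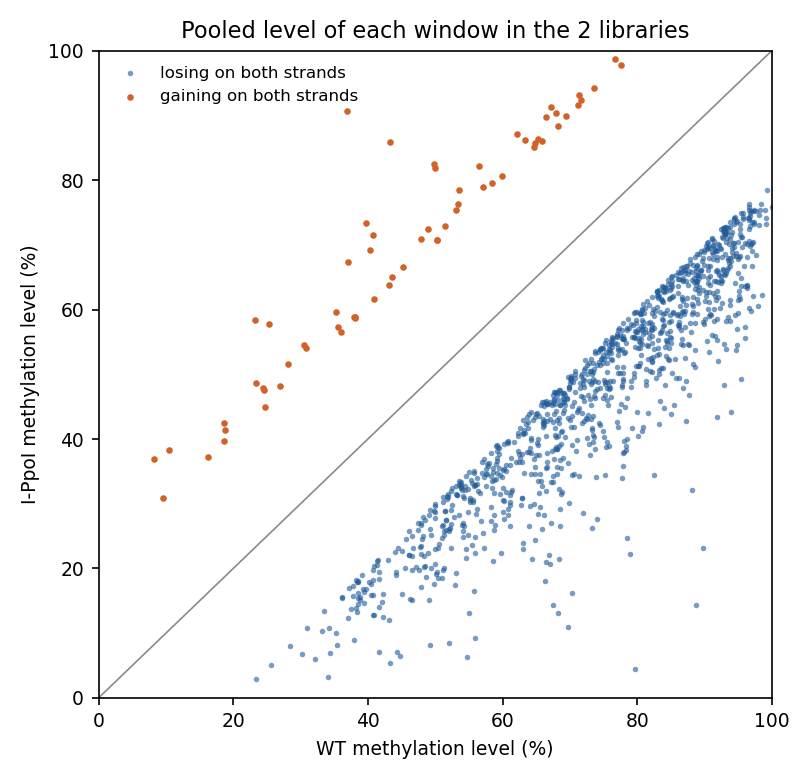
Methylation level of each window in WT (x axis, %) and in I-PpoI (y axis, %), with 1 point per window for the 1120 losing and 64 gaining windows; the grey line marks equal levels. The losing windows have medians of 75.7% in WT and 48.9% in I-PpoI.

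Both strands showed a similar loss, as the rule asked in part. The median difference was -25.4 points on F and -24.7 on R, and the strands of a window differed from each other by a median of 10.1 points. The rule asked for 10 points on each strand, and 548 windows were lower by 20 points on each. A further 184 windows were 20 points lower over all cytosines but missed 10 points on a strand, so that 1304 windows (1.2%) were lower by 20 points without regard to strand. Those 184 had a median of 140 reads in the shallower library, against 204 in the losing windows.

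**Figure D2:**
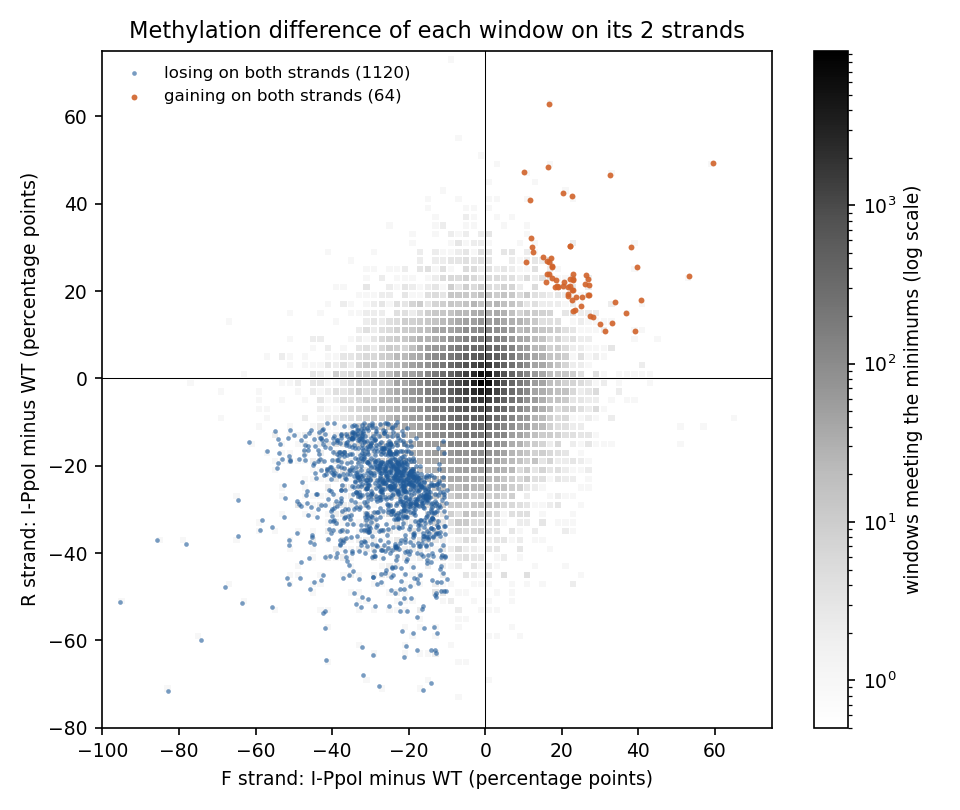
Difference I-PpoI minus WT on F cytosines (x axis, percentage points) and on R cytosines (y axis) for each window; grey squares count the 108541 windows on a log scale, blue points are the 1120 losing and orange points the 64 gaining windows. The empty corner of the blue points next to the axes follows from the rule.

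Within losing windows most cytosines took part. They held 11270 measured cytosines, 5617 on F and 5653 on R, of which 86.5% were lower in I-PpoI, 8.86% higher and 4.69% equal. Over all windows 41.2% of cytosines were lower and 28.6% higher. Every cytosine was lower in 393 windows (35.1%), and at least 80% of them in 894. The windows were chosen for lower pooled levels, so these counts follow in part from the rule. Cytosines between 20 and 80% made up 49.3% of those in losing windows in WT and 61.6% in I-PpoI, while those at 80% or more went from 46.2% to 17.0%. Levels of 20% or less went from 4.55% to 21.3%.

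CpGs measured on both strands let each CpG be compared with itself. Of 4427 such CpGs in losing windows, 3403 (76.9%) were lower on both strands and 13.5% moved in opposite directions. Lower by 10 points or more on both strands were 2655 CpGs (60%), against 2.20% of 1166801 CpGs in all windows. Across CpGs, which share reads and windows, the F and R differences correlated with r = 0.145 in losing windows and 0.101 in all windows. The levels of the strands correlated with r = 0.647 in WT and 0.461 in I-PpoI in losing windows, at a median of 41 and 25 reads per cytosine. In all windows r was 0.839 and 0.829, at 70 and 58 reads. The median gap between the strands of a CpG was 9.95 points in WT and 14.8 in I-PpoI, against 2.94 and 2.38 in all windows, where most cytosines lie at 20% or less.

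Near-complete loss at a CpG was rare. In losing windows 1 CpG went from 80% or more to 5% or less on both strands, of 1488 at 80% or more on both strands in WT. Over all windows 3 of 255978 such CpGs did. With the CpG of the largest weighted loss left out of each, the median difference was -21.3 points, 1074 of the 1120 windows were still lower by 10 points or more and 660 by 20 points or more, and 5 were no longer lower. The median window held 5 CpGs over a span of 144 bp, and 246 windows held 3 CpGs or fewer.

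Ranked by the weaker strand, the largest losses lay both in genes and far from them. Between Cep78 and Gnaq, the gene of a G protein subunit, chr19:16038001-16039000 had 88.8% of reads methylated in WT, with a 95% Wilson interval of 83.6 to 92.5%. In I-PpoI 14.4% were, with an interval of 9.51 to 21.2%. The lowest of its 7 cytosines in WT, at 80.6%, lay above the highest in I-PpoI, at 23.1%. At chr4:149796001-149797000, in the noncoding RNA gene Gm42354, the level went from 89.7% to 23.1%, while 1 of its 6 cytosines was higher in I-PpoI.

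Rin3, which encodes an exchange factor of the endosomal GTPase RAB5, held the strongest loss inside a protein-coding gene by this ranking. Its window (chr12:102362001-102363000) stood at 62.6% in WT and 6.78% in I-PpoI on F and at 73.3% and 20.9% on R. The 10 cytosines had medians of 65.9% in WT and 14.3% in I-PpoI. Their lowest WT value, at 56.5%, lay above the highest in I-PpoI, at 38.5%. In the noncoding RNA genes Gm13605 and Gm52553, between Rab14 and Gsn, chr2:35225001-35226000 went from 88.1% to 32.1%. Zfp831, a zinc finger gene (chr2:174600001-174601000), went from 68.4% to 21.4% and Trim36, a ubiquitin ligase gene (chr18:46176001-46177000), from 68.6% to 26.5%. Beside AI467606, chr7:127095001-127096000 went from 91.9% to 43.4%. Between Syk, the gene of a kinase of B cell and Fc receptors, and Auh, chr13:52690001-52691000 went from 66.9% to 22.0%.

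Some losing windows held many CpGs and had more reads summed over cytosines. In Col4a1, the gene of a collagen IV chain of basement membranes, the window chr8:11279001-11280000 held 29 cytosines, 28 of them lower and none higher. Levels were 91.6% in WT and 48.8% in I-PpoI on F and 94.1% and 48.0% on R. Reads summed over cytosines were 1454 and 1839. Here I-PpoI had the more reads. The start of the noncoding RNA gene Gm32709 lies in this window, and 5 cytosines in its promoter stood at 94.7% and 30.3%. In Kifc3, a gene of a minus-end-directed kinesin, 22 of 23 cytosines at chr8:95107001-95108000 were lower, from 77.0% to 34.6% on F and from 78.5% to 33.4% on R.

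**Figure D3:**
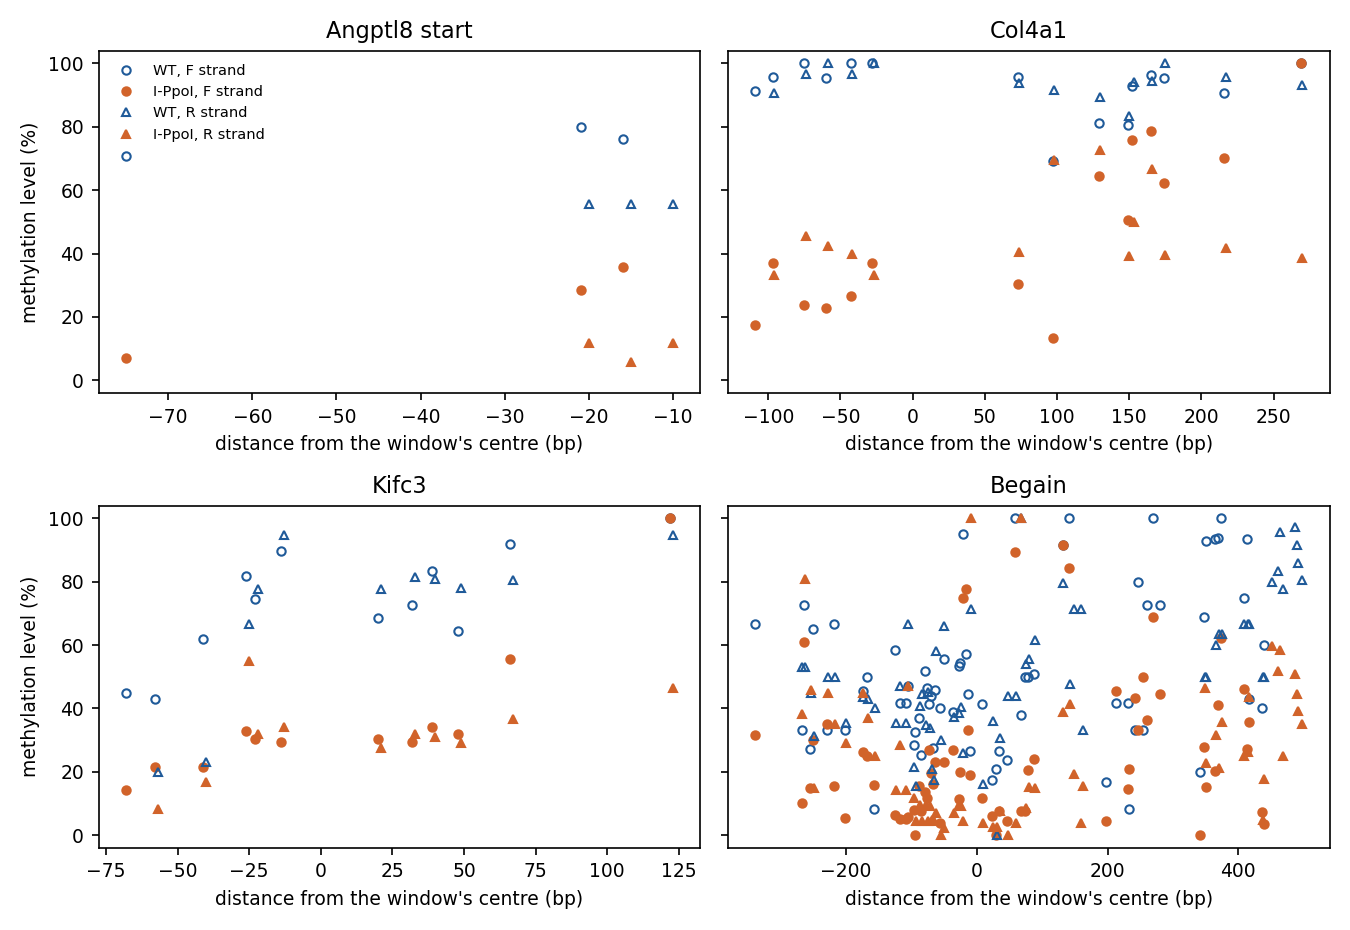
Methylation level (y axis, %) of each measured cytosine against its distance from the centre of its window (x axis, bp) at Angptl8, Col4a1, Kifc3 and Begain; open blue marks are WT and filled orange marks I-PpoI, circles F and triangles R. At Col4a1 28 of 29 cytosines are lower in I-PpoI, and at Begain 117 of 131.

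Of the losing windows 96 (8.57%) held 20 or more cytosines, against 28.2% of all windows. Several of the largest losses among the 96 lay in genes. These examples were picked after the values were seen. Map1b, a neuronal microtubule protein gene (chr13:99421001-99422000), went from 65.8% to 26.1% with 29 of 30 cytosines lower. Alpk1, which encodes a kinase that senses a bacterial sugar (chr3:127695001-127696000), went from 81.3% to 48.4% with 41 of 42 lower. Ltbp3, a gene of a TGF-beta binding protein (chr19:5756001-5757000), went from 78.5% to 46.3% with 32 of 33 lower, and Itsn2, an endocytosis scaffold gene (chr12:4707001-4708000), from 62.8% to 30.9% with 21 of 22 lower. Kcnk12, a potassium channel gene (chr17:87746001-87747000), went from 58.3% to 27.3%, and 103 of its 107 cytosines were lower. Summed over cytosines these windows had between 644 and 3129 WT reads, and such sums count the same stretch of DNA several times.

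Loss was most frequent in windows of a middle WT level. Of windows at 60 to 80% in WT 4.83% were losing, of those at 40 to 60% 4.55%, and of those at 95% or more 0.314%. A window below 20% cannot lose 20 points. Gaining windows made up 0.202% of windows at 60 to 80% and 0.455% at 40 to 60%. Between 40 and 90% in WT, 872 of 28348 windows (3.08%) were losing and 38 gaining. Losing windows outnumbered gaining ones on 19 of 19 autosomes, and their share ranged from 0.687% on chromosome 3 to 1.32% on chromosome 17. On the X chromosome, which the rule leaves out, 15 of 2567 windows (0.584%) were losing and 7 gaining.

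**Figure D4:**
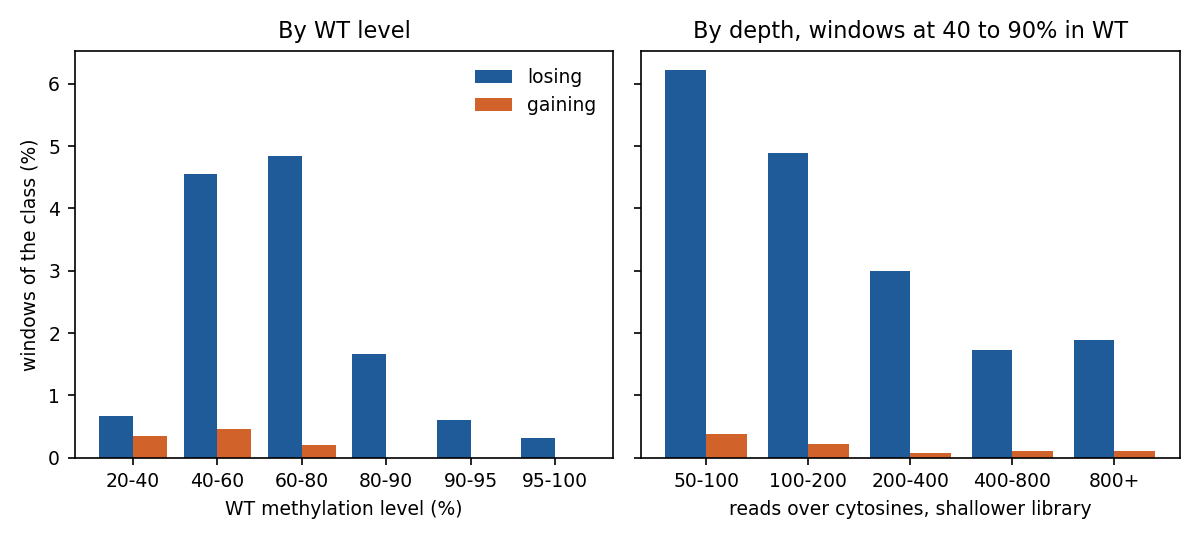
Share of windows (y axis, %) that were losing (blue) or gaining (orange), by WT level (left, %) and, for windows at 40 to 90% in WT, by reads over cytosines in the shallower library (right). The losing share is highest at 60 to 80% in WT, at 4.83%, and goes from 6.22% at 50 to 100 reads to 1.89% at 800 or more.

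Depth moved with the choice of windows. Losing windows had a median of 341 reads over cytosines in WT and 208 in I-PpoI, against 716 and 500 over all windows. The deepest cytosine of each strand, summed over both strands, had medians of 111 and 66 reads. Among windows at 40 to 90% in WT the losing share was 6.22% with 50 to 100 reads in the shallower library, 2.99% with 200 to 400 and 1.89% with 800 or more. With a coverage minimum of 20 reads 519 losing and 28 gaining windows were found, and with 30 reads 320 and 23. The windows that met the minimums numbered 80368 and 64148, so the losing windows dropped by a larger share than the windows examined. Coverage also differed between libraries: reads in I-PpoI over those in WT had a median of 0.634 in losing windows and 0.772 in all, but 0.653 and 0.696 at 40 to 90% in WT. In 106 losing windows I-PpoI had the more reads. At 40 to 90% in WT, windows with the more reads in I-PpoI were losing in 3.29% of cases.

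Losing windows lay mostly inside genes and held few CpGs. Outside chromosome 18, for which starts were not used here, 640 of 1081 (59.2%) lay inside a gene and more than 1000 bp from a start, 335 (31.0%) between genes and 106 (9.81%) within 1000 bp of a start. All windows gave 49.2%, 29.5% and 21.3%, with 1.03% losing among these 105097. A window near a start is often unmethylated and then cannot lose 20 points. At 40 to 90% in WT 4.02% of windows near a start, 3.52% inside genes and 2.26% between genes were losing. A losing window had a median of 7 cytosines and any window 11, and 68.7% against 42.0% held 5 to 9 cytosines. Gaining windows also had a median of 7, and 52.4% of them lay inside genes.

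Outside losing windows the mean difference was largest within 500 bp of the edge. Cytosines 1 to 500 bp beyond the edge of a losing window averaged 65.4% in WT and 58.1% in I-PpoI, a mean difference of -7.29 points over the 403 windows that had such cytosines. The mean difference was -2.98 points from 501 to 1000 bp, -3.45 from 1001 to 2000 bp, -3.40 from 2001 to 5000 bp and -2.35 from 10001 to 20000 bp. Beside every 20th window these 5 distances gave -1.89, -2.26, -2.69, -2.95 and -2.34 points. The flanks were not matched for WT level. Beside every 20th window it averaged 49.4% within 500 bp and 47.1% from 501 to 1000 bp, where losing windows had 65.4% and 60.7%. Beside gaining windows cytosines 1 to 500 bp away differed by 6.24 points, over 24 windows. Nearby cytosines can lie on the same reads as those of the window.

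**Figure D5:**
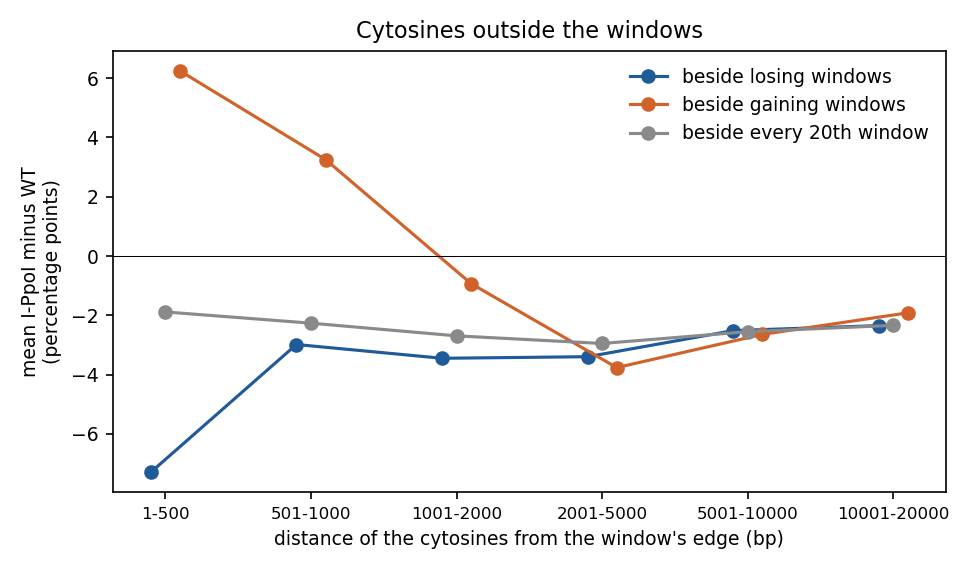
Mean difference I-PpoI minus WT (y axis, percentage points) of cytosines outside the windows by distance from the edge (x axis, bp), for losing windows (blue), gaining windows (orange) and every 20th window meeting the minimums (grey). Beside losing windows the mean is -7.29 points within 500 bp and between -3.45 and -2.35 further out.

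Most losing windows had no other losing window near them, but few adjoining windows met the minimums. Of the 1120, 1064 (95%) had no other losing window within 10 kb, and the other 56 formed 28 pairs. An adjoining losing window was found for 30 losing windows. Another 325 windows that met the minimums lay beside a losing window without being losing. Of these 325, 14.5% were lower by 10 points or more, against 6.78% of all windows. The pair with the largest summed loss lay in Mtf1, a gene of a metal-responsive transcription factor, where chr4:124805001-124806000 went from 94.5% to 59.2% and chr4:124810001-124811000 from 87.3% to 42.8%. Between Map3k7cl and Bach1 the windows chr16:87655001-87656000 and chr16:87665001-87666000 went from 68.8% to 31.8% and from 73.0% to 37.5%. Adjoining windows in Tnfaip8, an apoptosis regulator gene (chr18:50064001-50066000), went from 75.5% to 48.8% and from 78.3% to 38.3%. Those in Celf6, an RNA-binding protein gene (chr9:59602001-59604000), went from 64.8% to 24.4% and from 57.7% to 34.6%. Losing windows overlapped 613 protein-coding genes. Tnfaip8, with 3, was the only gene overlapped by more than 2.

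Among 16372 protein-coding genes with a measured window in the gene or within 1000 bp, 680 (4.15%) held a losing window. Longer and more methylated genes have more windows that can lose 20 points, so the lists below are counts set beside that share and carry no test. They were drawn up with earlier results of these data known. No gene of the 12 lists held a gaining window, and of all 16372 genes only 33 did, so that count says nothing about the lists.

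Of 16 granulocyte genes measured 4 held a losing window: Mpo, Ctsg, Mmp8 and Cebpe, in 4 of 50 windows, or 4 of the 18 at 40 to 90% in WT. Mmp8 encodes neutrophil collagenase, and its window (chr9:7560001-7561000) stood at 86.8% in WT and 47.8% in I-PpoI on F and at 80.5% and 39.5% on R. Mpo encodes myeloperoxidase of the primary granules. In the window inside it (chr11:87801001-87802000) 20 of 23 cytosines were lower, with 72.7% and 57.1% on F and 90.9% and 52.7% on R. Cebpe, the gene of a transcription factor of late granulocyte maturation (chr14:54712001-54713000), went from 70.6% to 45.7% over 10 cytosines. Of 14 monocyte and macrophage genes 2 held such a window, Adgre1, the F4/80 antigen gene (chr17:57359001-57360000, 80.8% to 54.7%), and Nr4a1, a nuclear receptor gene of patrolling monocytes (chr15:101259001-101260000, 82.9% to 60.3%).

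Of 17 B cell genes 4 held a losing window, in 4 of 87 windows: Ebf1, Cd40, Dapp1 and Ralgps2. Dapp1 encodes an adaptor of B cell receptor signalling. The window lies beside the gene, within 1000 bp (chr3:137982001-137983000), and all 10 of its cytosines were lower, from 92.2% to 60.3%, but with 645 reads in WT and 136 in I-PpoI. Cd40, a costimulatory receptor gene (chr2:165064001-165065000), went from 83.9% to 59.4%, and Ralgps2 (chr1:156931001-156932000) from 52.2% to 26.2%. Of 23 T cell genes 2 held a losing window, in 2 of 120 windows. In Lcp2, the gene of the adaptor SLP-76 (chr11:34053001-34054000), the strands differed, with 96.2% and 18% on F and 47.1% and 9.23% on R. Cd247 encodes the zeta chain of the T cell receptor complex, and its window (chr1:165801001-165802000) went from 80% to 44.2%. None of 5 NK and cytotoxic genes and none of 11 erythroid and platelet genes held a losing window, in 17 and 56 windows.

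Of 50 genes of blood transcription factors 6 held a losing window, Ikzf2, Erg, Ets2, Etv6, Bach2 and Foxp1, in 8 of 476 windows. Foxp1, a forkhead factor of B cell development, held 2, at chr6:99067001-99068000 (74.1% to 51.4%) and chr6:99502001-99503000 (76.2% to 55.8%), with all 18 cytosines lower between them. Erg, an ETS factor gene of blood stem cells (chr16:95537001-95538000), went from 86.8% to 64.9%. Of 39 adhesion and actin genes 4 held a losing window, Lasp1, Rin3, Fgr and Syk. Lasp1, whose product binds actin (chr11:97815001-97816000), had 6 cytosines, of which the lowest in WT, at 71.4%, lay above the highest in I-PpoI, at 31.2%. Fgr, a Src family kinase gene of myeloid cells (chr4:132983001-132984000), went from 62.5% to 37.7%, with 7 of 11 cytosines lower and 3 higher. Its difference of -24.8 points was -13.0 with each cytosine weighted equally and -17.8 without the CpG of the largest weighted loss, both short of the 20 points of the rule.

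Imprinted genes, which carry methylation on the copy from 1 parent at their control regions, held a losing window in 8 of 46 cases, in 7 of 224 windows. At the Gnas locus the level of chr2:174295001-174296000 went from 54.7% to 6.31%, with 59.0% and 6.29% on F and 38.1% and 6.45% on R. All 12 cytosines were lower, and the lowest in WT, at 25%, lay above the highest in I-PpoI, at 13%. The window in Begain, beside the Dlk1 and Meg3 domain (chr12:109033001-109034000), had the most cytosines of all losing windows, 131. Of these 117 were lower and 12 higher, and the level went from 47.1% to 23.0% on F and from 53.5% to 23.3% on R. Reads summed over its 131 cytosines were 4335 in WT and 6297 in I-PpoI. Its difference was -27.3 points (95% Newcombe interval -29.1 to -25.5, too narrow since reads span several cytosines). Cdh15, a cadherin gene (chr8:122851001-122852000), went from 67.9% to 38.7%.

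Of 21 genes listed under DNA methylation 1 held a losing window, and of 32 listed under the DNA damage response none did. The gene with such a window was Idh2, which encodes a mitochondrial isocitrate dehydrogenase (chr7:80109001-80110000, 79.5% to 55.8%). Its difference of -23.7 points was -16.5 with each cytosine weighted equally and -17.8 without the CpG of the largest weighted loss. Both fell short of 20 points. The DNA damage list had a median WT level of 6.5% over 92 windows, of which 6 lay at 40 to 90%, so few could lose 20 points. Of 16 proximal tubule genes 3 held a losing window. Beside Slc7a7 these were Hnf4a, a transcription factor gene of tubule and liver (chr2:163540001-163541000, 76.2% to 53.3%), and Cubn, the gene of the endocytic receptor cubilin. In Cubn (chr2:13306001-13307000) the level went from 90.1% to 55.2% on F and from 95.2% to 81.5% on R.

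Losing windows also covered 3 miRNA hairpins. Mir6985 (chr19:4263001-4264000) went from 72.1% to 50.6%, Mir1905 (chr3:88536001-88537000) from 82.2% to 59.5% over 57 cytosines, and Gm24195 (chr13:54578001-54579000), listed among the hairpins, from 75.3% to 54.8%.

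The threshold cut through a continuous range. Between 20 and 21 points 166 windows were losing, and 178 windows lower by 19 to 20 points met the strand part of the rule. Just inside lay chr15:79797001-79798000 in Nptxr, with 87.8% in WT and 67.8% in I-PpoI, and, between genes, chr11:76015001-76016000 (77.9% and 57.9%) and chr17:83322001-83323000 (91.1% and 71.1%). Just outside lay chr9:121166001-121167000 in Ulk4 (67.7% and 47.7%), and, between genes, chr10:118559001-118560000 (91.7% and 71.7%) and chr16:52624001-52625000 (83.6% and 63.6%).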

How the data were processed

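RRBS of peripheral blood cells was measured in 1 WT and 1 I-PpoI library. Per the file headers, the authors deposited, for each CpG cytosine of a strand, its coverage as a count of reads and 2 percent values, for reads showing C and reads showing T. No cytosine under 10 reads was listed. The tool named in the submitters' processing notes is methylKit. Aligner, genome build, trimming and duplicate removal: not given in the sources used here. Any PCR copies left in could shift a level. The design text names MACS and fold changes for regions, which were not used here. Percent C times coverage was whole, within 1e-06, at 100% of cytosines. WT listed 3569384 cytosines (median coverage 53) and I-PpoI 3141563 (median 49), of which 3040450 were in both.

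Reads were summed over windows in Python 3.11.15 with pandas 2.3.3, and figures were drawn with matplotlib 3.10.9. With 1 library per group no test was run. Wilson and Newcombe 95% intervals cover counting error only and are too narrow, since reads span several cytosines and the labels mention no molecular identifiers. The window search was tested on simulated data, in which losses well beyond the threshold were set and each cytosine was drawn independently. That trial gives no rate of false calls near the threshold in these data.

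Positions are those of the deposited values. Of 439065 WT cytosines inside RefSeq promoter windows of GRCm38.p6, 99.9% fell on a CpG of those letters on the right strand. Gene names and starts came from the same RefSeq tables. No whole genome sequence was used here, so planned searches outside promoters were not run, and exons and introns were not used here. All symbols of the 12 gene lists were matched by symbol or a synonym held by 1 gene.

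Windows were named by rank on the weaker strand with at least 100 reads in each library: the first 12, up to 3 per gene list, 4 runs within 10 kb, 3 on each side of the threshold and 4 over a promoter. Of the first 12, 1 window is not reported here. The rule, the windows and the lists were chosen with earlier results of these data known. Alternatives changed coverage, weights, thresholds, window length and phase, and CpGs left out. For named windows each strand was also taken alone.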

Additional observations from a re-analysis of the deposited data

How the results depend on the processing

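Losing windows outnumbered gaining ones under each of the 14 alternatives tried. The counts as reported, 1120 losing and 64 gaining, became 519 and 28 with a coverage minimum of 20 reads, 320 and 23 with 30 reads, 492 and 13 with a loss of 25 points over all and 15 on each strand, and 548 and 23 with 20 points on each strand. With CpGs measured on both strands alone 692 windows were losing, and with the CpG of the largest weighted loss left out 400, of which 392 were among the 1120. That last alternative removes the largest loss from each window by construction: of the 1120 windows 601 still met the 3 thresholds of the rule without that CpG, before the minimums were applied again. Gaining windows then numbered 90. The other alternatives gave 844 to 1218 losing windows. With equal weights 927 were losing, of which 798 were among the 1120, and with WT weights 1019, of which 928 were. Over the same 1120 windows the median difference of -24.8 points became -23.3 with equal weights and -24.5 with WT weights. Of 46 windows named by the rule, 30 stayed inside the counting interval of their difference on F cytosines alone and 28 on R cytosines alone. With equal weights 41 did, with WT weights 44 and without the CpG of the largest weighted loss 44. Windows just inside the threshold moved, and so did windows farther from it. Just inside, chr15:79797001-79798000 was at -9.92 points without that CpG. With WT weights chr11:76015001-76016000 was at -12.7 and chr17:83322001-83323000 at -12.4. Farther from the threshold, equal weights took the window in Gm42354 from -66.6 to -52.4 points and that in Fgr from -24.8 to -13. The cause was not tested. No paired analysis was possible because there was 1 library per group. Depth limits these windows: the median counting interval was 15.7 points wide.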

Other observations

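Cytosines of losing windows that only 1 library listed were not used to choose the windows. WT listed 13337 cytosines there, of which 2067 (15.5%) were listed by WT alone, against 6.6% in all windows. These pooled to 78.8%, and the cytosines listed by both to 71.4% in WT. I-PpoI listed 11646, of which 376 (3.23%) were listed by I-PpoI alone, against 2.13% in all windows. They pooled to 54.8% in I-PpoI, against 44.0% at the cytosines of losing windows listed by both. All windows gave the same order. There WT-only cytosines pooled to 64.2%, against 26.7% in WT at those listed by both. I-PpoI-only cytosines pooled to 35.0%, against 21.4% in I-PpoI at those listed by both. The WT-only and I-PpoI-only cytosines are different positions, so their levels are given side by side and were not compared.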
